A study of Mus musculus with 4 samples.

Results

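The genes described here encode the amyloid precursor protein and a related precursor (App, Aplp1), the proteases that cut amyloid precursor protein (Adam10, Bace1, Psen2), peptidases that degrade amyloid-beta (Ide, Mme), the microtubule-binding protein tau (Mapt) and apolipoprotein E (Apoe). They were taken by symbol from the array's platform annotation, the brightest transcript cluster standing for a symbol, and all 9 of 9 were found, each with 1 transcript cluster, among 19505 named genes in all. RNA came from brain cortex of male SAMR1 mice, the normally ageing control line of the senescence-accelerated mouse strains, which were housed singly for 4 months from 7 months of age. From 11 months of age the TCQA group was given 5 mg/kg of TCQA (tricaffeoylquinic acid, a polyphenol of plants) orally each day for 1 month, and the water group was given purified water. Each group had 2 Clariom S arrays, numbered by replicate. Whether each array stands for a single mouse or for pooled mice is not stated in the labels, so the p-values reflect the spread of these 4 samples, part or all of which may be technical. No senescence-prone strain and no amyloid or tau transgene was part of the comparison, so all values are of the endogenous mouse genes.

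Amyloid precursor protein is a membrane protein that can be cut along competing routes. A cut by alpha-secretase, a role of Adam10, falls inside the amyloid-beta stretch and prevents its release, while a cut by the beta-secretase Bace1 followed by gamma-secretase, whose catalytic subunit is a presenilin, frees the peptide. Insulin-degrading enzyme (Ide) and neprilysin (Mme) break the peptide down, tau stabilises axonal microtubules, and apolipoprotein E carries lipid from astrocytes to other brain cells.

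None of the 9 genes passed the test of TCQA against water. Ide and Bace1 were the furthest above the water level, 1.31-fold and 1.26-fold higher, and Mme followed at 1.21-fold. Apoe was 1.09-fold lower, Psen2 was too dim for a fold, and App, Aplp1, Adam10 and Mapt lay within 1.06-fold of water. In limma's moderated test 0 of 9 reached an unadjusted p of 0.05, where 7.37% of all 19572 named transcript clusters did. The lowest unadjusted p was 0.123 and the adjusted p-values (limma, Benjamini-Hochberg over all named transcript clusters) ran from 0.703 to 0.987. The same linear model without the moderation gave 0 of 9 as well. By the study's criteria, an unadjusted p under 0.05 with more than a 2-fold change, 0 of 9 were called, against 0.664% of all, and after adjustment 0% of all were.

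The number of arrays and the brightness of the probes set what could have been seen. Of the negative control probe sets, 50% lay below a log2 signal of 6.98 and 95% below 11.06. The median of all named transcript clusters was 7.01, so a signal below the lower mark was common on these arrays. App, Aplp1, Adam10, Ide and Apoe, 5 of the 9, had a mean above the higher mark. Bace1, Mapt and Mme lay between the marks on all 4 arrays, and Psen2 lay below both. For the 8 genes other than Psen2 the 95% interval of the difference lay within 2-fold in limma's fit, the widest being that of Ide. With each gene's own spread alone, without moderation, 6 of the 8 did, and with 1 array left out 6 or 7 did. The signal of Psen2 is too near background to bound a fold. An exact permutation test of 2 arrays against 2 cannot give a two-sided p below 0.333, which was its value for Aplp1, Bace1, Ide and Apoe. For 7 of the 9 genes the distance between the arrays of 1 of the groups was larger than the distance between the group means, the exceptions being Bace1 and Ide.

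**Figure D1:**
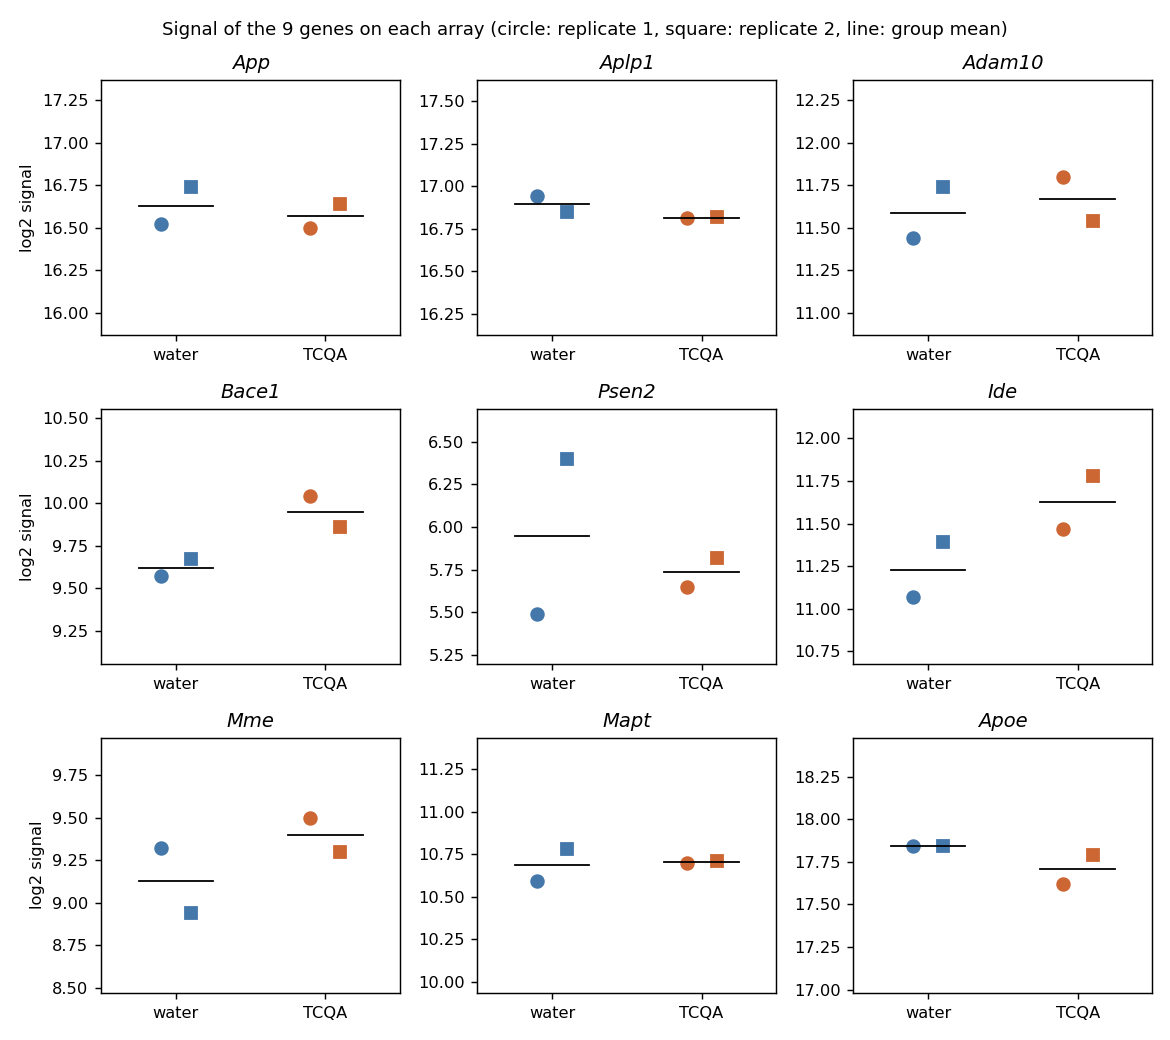
Log2 signal of each gene on the 4 arrays, by group; circles are replicate 1, squares replicate 2 and lines group means, and every panel spans 1.5 log2 units around its own values, so levels differ between panels. Groups are apart for Aplp1, Bace1, Ide and Apoe, and Psen2 has the widest spread, between 5.49 and 6.40 in water.

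Of the precursors, App gave log2 signals of 16.50 and 16.64 in TCQA and 16.52 and 16.74 in water. The groups overlapped, the highest and the second highest array belonging to different groups, and the difference was -0.058 (SE 0.20, 95% interval -0.53 to 0.41, n = 2 per group). Its sign turned without TCQA 1 (0.011) and without water 2 (0.049). Aplp1, a neuronal relative that lacks the amyloid-beta stretch, gave 16.81 and 16.82 in TCQA and 16.94 and 16.85 in water. Both TCQA arrays were just below both water arrays, by a gap of 0.024, and the difference was -0.077 (SE 0.18, 95% interval -0.52 to 0.37). Aplp1 had a small spread, 0.13 over the 4 arrays, and both precursors were well above the negative control probe sets.

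The sequence before an annotated start is shown for the precursors and for Adam10, the protease of the route that does not release the peptide. The signals of these genes lay within 1.06-fold of water. RefSeq windows on GRCm38.p6 were given for 7 of the 9 genes, and none was given for Bace1 or Mapt. Each line gives the 250 bases before an annotated start, 5′ to 3′ along the gene. The windows are chr16:85173708-85173957 (minus strand) for App, chr7:30445583-30445832 (minus strand) for Aplp1 and chr9:70678732-70678981 (plus strand) for Adam10. That of App lies inside the annotated gene, chr16:84952666-85175255, before an internal start. That of Adam10 runs past the outermost gene start at 70678944, and that of Aplp1 abuts the gene. Capitals mark matches, on either strand, to the GC box GGGCGG, the CCAAT box CCAAT, the E-box CACGTG and the core of the antioxidant response element TGACNNNGC.

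App: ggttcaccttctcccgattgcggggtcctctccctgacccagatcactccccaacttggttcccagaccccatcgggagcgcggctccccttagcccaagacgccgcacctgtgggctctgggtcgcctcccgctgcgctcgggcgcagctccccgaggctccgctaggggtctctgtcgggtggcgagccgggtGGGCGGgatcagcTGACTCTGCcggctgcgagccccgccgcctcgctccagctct

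Aplp1: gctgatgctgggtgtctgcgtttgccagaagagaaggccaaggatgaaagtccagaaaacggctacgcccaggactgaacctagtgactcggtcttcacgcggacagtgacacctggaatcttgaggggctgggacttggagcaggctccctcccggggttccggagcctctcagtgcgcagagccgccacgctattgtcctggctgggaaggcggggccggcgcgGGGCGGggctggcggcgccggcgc

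Adam10: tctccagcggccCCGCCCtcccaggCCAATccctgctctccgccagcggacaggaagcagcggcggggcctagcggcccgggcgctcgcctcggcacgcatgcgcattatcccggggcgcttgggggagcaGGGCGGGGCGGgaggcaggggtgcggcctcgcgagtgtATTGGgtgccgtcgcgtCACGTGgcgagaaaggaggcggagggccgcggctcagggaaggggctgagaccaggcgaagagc

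All of these windows were rich in G and C, at 70.8% for App, 66.0% for Aplp1 and 74.0% for Adam10, against a median of 52.4% over 32851 windows of all genes. The 12 windows of the 7 genes ran from 42.8% for Ide to 74.0%, and 5 of them, of Psen2, Ide, Mme and Apoe, were below that median. A GC box, the letters bound by Sp1-type factors, stood 55 bases before the start used for App and 24 bases before that of Aplp1. Adam10 had 3, at 238, 119 and 114 bases, the last 2 of which share a base, with CCAAT boxes at 225 and 81 bases and an E-box at 64 bases. The antioxidant response core matched once, 42 bases before the start used for App. Some genes have several starts, whose windows can overlap. A GC box occurred in 7 of the 12 windows and in 32.7% of all windows, a CCAAT box in 4 and in 33.8%, an E-box in 2 and in 6.0%, and the antioxidant core in 1 and in 10.2%. The TATA box TATAAA was found in 1 of the 12, a window of Apoe, and in 12.4% of all windows, and the cAMP response element TGACGTCA in 0 of 12 and in 1.5%. These matches describe letters in the windows and say nothing of binding.

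Among the secretases, Adam10 gave 11.80 and 11.54 in TCQA and 11.44 and 11.74 in water. Water 2 lay between the 2 TCQA arrays, so the groups overlapped, and the difference was 0.082 (SE 0.21, 95% interval -0.43 to 0.60). It turned to -0.051 without TCQA 1 and to -0.068 without water 1. Bace1, the beta-secretase, gave 10.04 and 9.86 in TCQA and 9.57 and 9.67 in water. Both TCQA arrays were above both water arrays, by a gap of 0.19 that was the widest among the 9 genes, and the difference was 0.33 (SE 0.19, 95% interval -0.13 to 0.79, limma's adjusted p = 0.705). With Bace1's own spread alone the SE was 0.10 and the unadjusted p of the ordinary test on the same 4 arrays was 0.0842, exact permutation p 0.333. The difference kept its sign with any 1 array left out, between 0.24 and 0.42.

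Psen2, a catalytic subunit of gamma-secretase, gave 5.65 and 5.82 in TCQA and 5.49 and 6.40 in water. All 4 values were below the median of the negative control probe sets, 6.98, so its level and the size of its differences are uncertain. Water 1 was the lowest and water 2 the highest array, 0.91 apart, against a group difference of -0.22 (SE 0.32). Without water 1 the difference was -0.67 (limma's unadjusted p = 0.0370, adjusted p = 0.784), and without water 2 it was 0.24, so its direction rested on which water array was kept.

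Ide, the insulin-degrading enzyme, gave 11.47 and 11.78 in TCQA and 11.07 and 11.39 in water. The groups were apart by 0.076 only, while the arrays within each group were 0.31 and 0.32 apart, and the difference was 0.39 (SE 0.22, 95% interval -0.14 to 0.93, limma's adjusted p = 0.703). It lay between 0.23 and 0.55 with any 1 array left out. Mme, or neprilysin, a membrane peptidase, gave 9.50 and 9.30 in TCQA and 9.32 and 8.94 in water. Water 1 was above TCQA 2 by 0.017, so the groups overlapped, and the difference was 0.27 (SE 0.22, 95% interval -0.25 to 0.80). Without water 2, the lowest array, it was 0.081, and without water 1 it was 0.46.

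Mapt gave 10.70 and 10.71 in TCQA and 10.59 and 10.78 in water. Both TCQA arrays lay between the water arrays, and the difference of 0.020 (SE 0.19, 95% interval -0.44 to 0.48) was the smallest of the 9. It was -0.023 after quantile normalisation and -0.073 without water 1. Apoe gave 17.62 and 17.79 in TCQA and 17.84 and 17.84 in water. The water arrays were level with each other and above both TCQA arrays, TCQA 1 being the lowest, and the difference was -0.13 (SE 0.19, 95% interval -0.58 to 0.33). Without TCQA 1 it was -0.042. With Aplp1, Bace1 and Ide, Apoe was among 4 of 9 genes whose groups did not overlap, a pattern shown by 39.2% of all named transcript clusters.

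**Figure D2:**
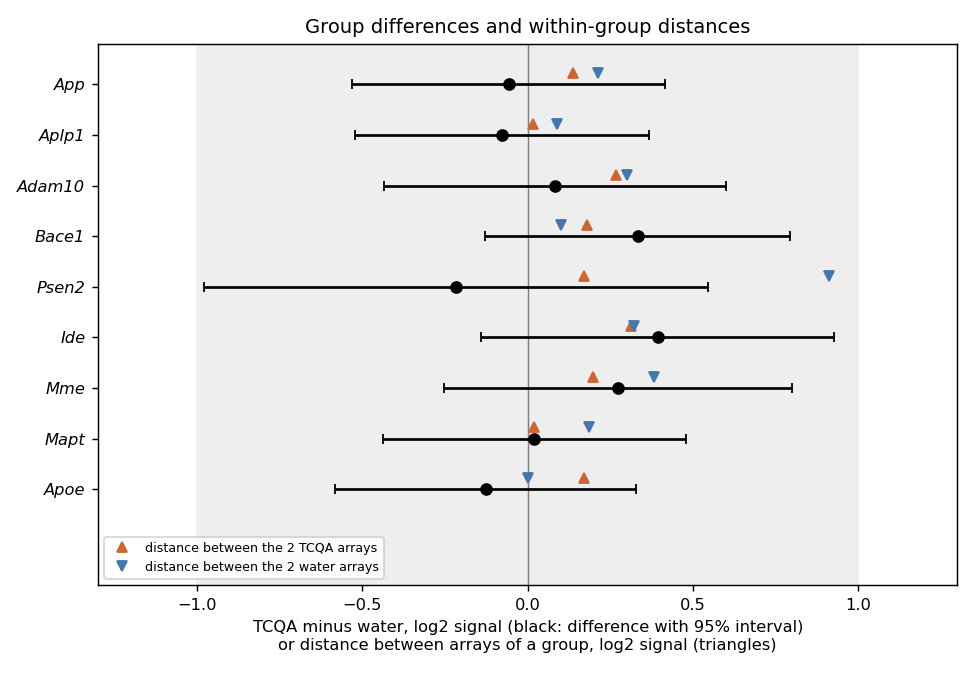
Difference between TCQA and water in log2 signal for each gene (black points) with limma's 95% interval (bars), and the distance between the 2 arrays of each group (triangles); grey marks changes under 2-fold. Every interval crosses 0, and for Psen2 the water arrays are 0.91 apart.

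The median difference of the 9 genes was 0.020, against 0.0028 over all named transcript clusters, and the median size of the difference, sign ignored, was 0.13 against 0.19. There were 5 genes with a higher and 4 with a lower TCQA mean, where 50.5% of all named transcript clusters had a higher one. Water 1 was the lowest array for 5 of the 9 genes (Adam10, Bace1, Psen2, Ide and Mapt) and the highest for 2 (Aplp1 and Apoe).

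The genes with the pattern nearest to App over the 4 arrays, after each gene was centred on its own mean, were Pum2, Zfp148 and Skp1, at root mean square differences of 0.0211, 0.0226 and 0.0238 log2 units. The 3 nearest to Mapt were Ldha, Pabpn1 and Vps29 (0.00744, 0.0102 and 0.0123), and the 3 nearest to Apoe were Hnrnpc, Ap2m1 and Wtap (0.00481, 0.0136 and 0.0167). The search covered 3215 or 3216 genes with a mean at or above the 95th percentile of the negative controls, and with 4 arrays nearness is a description of these values only.

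Because the members are expressed in different cells, markers of cell types and neighbouring regions were read on the same arrays. Of 13 excitatory neuron markers 8 were at or above the 95th percentile of the negative controls on average, among them Slc17a7, the cortical vesicular glutamate transporter, at 15.98 to 16.34. Of 14 striatal markers 12 were at or above that mark too, so these counts do not tell cortex from striatum. The excitatory list was lowest in water 1, with a mean of 11.78 there and of 12.33 in water 2, 12.44 in TCQA 1 and 12.38 in TCQA 2, and 11 of 13 markers were higher in TCQA. The inhibitory neuron list was instead lowest in water 2, at 9.84, with 10.06 in water 1, 9.96 in TCQA 1 and 10.69 in TCQA 2. Of its 15 markers 12 were higher in TCQA, and 10 were higher in water 1 than in water 2. Like the excitatory list, Bace1, Ide and Mapt, which neurons express, were lowest in water 1, as were Adam10 and Psen2. App and Aplp1, which neurons express too, were not, App being lowest in TCQA 1 and Aplp1 highest in water 1. The part of the neuron content in any of these values was not tested. Myelin markers were highest in water 1 (12.26, against 11.68 to 11.71 elsewhere), as was Aplp1, and the part of myelin was likewise not tested. In bulk tissue fewer cells of a type and less RNA per cell cannot be told apart.

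Astrocytes are the main source of Apoe in brain. The mean of 15 astrocyte markers was 12.21 and 12.27 in TCQA and 12.31 and 12.23 in water, with 8 markers higher and 7 lower in TCQA and a median difference of 0.046. Fgfr3, a growth factor receptor, was higher by 0.54 and Slc1a3, a glutamate transporter, lower by a log2 change of -0.47, the 2 astrocyte markers with an unadjusted p under 0.05 in limma. Fgfr3 lost it without TCQA 2, water 1 or water 2 and Slc1a3 without any 1 array, and 0 of 15 passed after adjustment. Markers of microglia and macrophages, which also make Apoe, were lower in TCQA for 10 of 13 genes with a median of -0.075. But the mean of these markers was highest in TCQA 1 (7.99) and lowest in TCQA 2 (7.60), with 7.90 and 7.77 in water. Mrc1, a mannose receptor of border-associated macrophages, gave 8.68 and 7.46 in TCQA and 6.54 and 6.57 in water, where it was below the negative control median. Its difference was 1.51 (limma's unadjusted p = 0.00693), or 0.90 without TCQA 1 and 2.12 without TCQA 2, and the call was lost without moderation. Aif1, a marker of microglia, differed by -0.70 (limma's unadjusted p = 0.0343) and lost its call without moderation, with controls in the prior and without TCQA 2, water 1 or water 2. The part of these cells in the value of Apoe was not tested. Choroid plexus markers were lower for 12 of 12 with a median of -1.01, at means of 7.36 and 6.64 in TCQA and 8.66 and 8.04 in water.

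**Figure D3:**
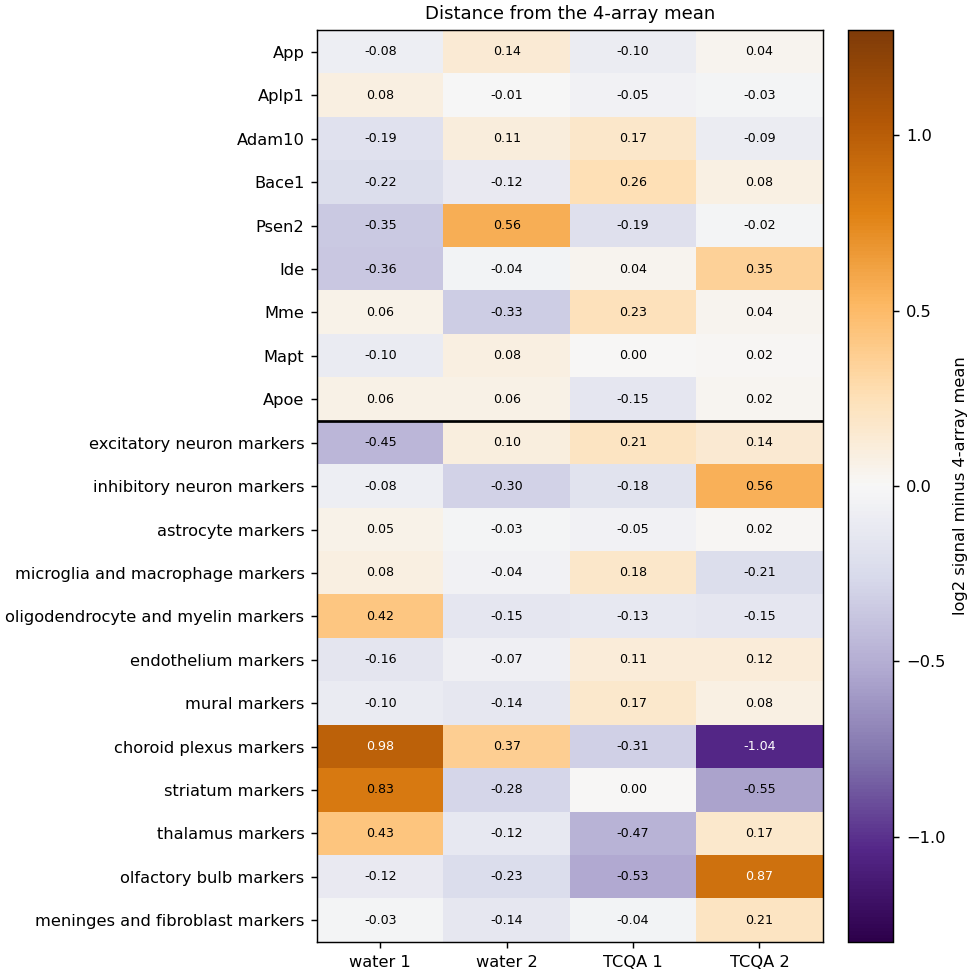
Log2 signal minus the 4-array mean for the 9 genes (upper rows) and for the mean of each list of markers (lower rows), by array. The genes lie within 0.56 of their own mean, while choroid plexus markers run from -1.04 in TCQA 2 to 0.98 in water 1 and striatal markers reach 0.83 in water 1.

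The wider pathways were read from 7 lists with 106 measured genes, 97 beside the 9. Of the 106, 4 had an unadjusted p under 0.05 in limma, or 3.77% against 7.37% of all named transcript clusters. Of these 3 were higher and 1 lower in TCQA, where 3.48% of all named transcript clusters were called higher and 3.89% lower. None exceeded 2-fold, 0 passed after adjustment, 50 were higher and 56 lower, and the median difference was -0.0081.

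Among amyloid precursor family members and binding partners, 9 of 19 were higher and 10 lower, with a median of -0.058. Apba2, an adaptor that binds the tail of amyloid precursor protein, was the 1 gene of the list past an unadjusted p of 0.05. It gave 10.07 and 10.54 in TCQA and 9.72 and 9.77 in water, 1.48-fold higher in TCQA (limma's unadjusted p = 0.0442, adjusted p = 0.673). Both TCQA arrays were above both water arrays, and without TCQA 2 the difference was 0.33 against 0.56. Its call was also lost after quantile normalisation, with controls in the prior, in the ordinary test and without water 1 or water 2. Rtn1, a reticulon of the endoplasmic reticulum, was 1.20-fold and Gga1, a sorting adaptor, 1.19-fold higher, with unadjusted p-values in limma of 0.220 and 0.224.

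Of 9 alpha- and beta-secretase genes, including tetraspanins that escort Adam10, 5 were higher and 4 lower (median 0.018), and 0 reached an unadjusted p of 0.05 in limma. Tspan5, such a tetraspanin, gave 14.25 and 14.36 in TCQA and 13.81 and 14.08 in water, a difference of 0.36 (SE 0.20), or 0.23 without water 1. Bace2, the homologue of Bace1, was lower by -0.49 (SE 0.25), at 5.33 and 4.71 in TCQA and 5.54 and 5.48 in water, below the negative control median on every array. Without TCQA 1 the difference of Bace2 was -0.80 and without TCQA 2 it was -0.18. Bace1 and Bace2 thus had differences of opposite sign, neither past the test.

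Of 6 gamma-secretase genes 3 were higher and 3 lower (median 0.013), with 0 past an unadjusted p of 0.05 in limma. Aph1c, a scaffold subunit found in rodents, gave 7.99 and 8.57 in TCQA and 7.82 and 7.60 in water, a difference of 0.56 (SE 0.25). Its near copy Aph1b differed by 0.35 (SE 0.26), and the signal of probes that such copies share cannot be assigned with certainty. That of Aph1c was 0.86 without TCQA 1 and 0.27 without TCQA 2, and that of Aph1b 0.62 without water 1 and 0.088 without water 2. Psenen, which completes the complex, differed by -0.048 (SE 0.19), or 0.012 without water 1.

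Amyloid-beta degradation and clearance held the other 3 genes past an unadjusted p of 0.05, among 9 higher and 9 lower of 18 (median 0.036). Ace, angiotensin-converting enzyme, gave 7.26 and 7.44 in TCQA and 8.61 and 7.94 in water, 1.90-fold lower in TCQA (log2 difference -0.92, SE 0.27, limma's unadjusted p = 0.0118, adjusted p = 0.664). Without water 1, its highest array, the difference was -0.59 and the call was lost, as it was without moderation. Choroid plexus, which makes Ace, had 12 of 12 markers lower, and striatal markers were lower for 13 of 14 with a median of -0.64 and highest in water 1 (13.34, against 11.96 to 12.51 elsewhere), and the part of either tissue in the value of Ace was not tested.

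Abcb1a, the P-glycoprotein pump of the blood-brain barrier, gave 8.51 and 8.64 in TCQA and 7.56 and 8.11 in water, 1.67-fold higher (limma's unadjusted p = 0.0203, adjusted p = 0.673). Without water 1 it stood at 0.46 against 0.74, and it lost the call there, without TCQA 2 and without moderation. It belongs to the endothelial list as well, of which 10 of 13 genes were higher with a median of 0.24 and means of 9.32 and 9.32 in TCQA and 9.04 and 9.14 in water. Mmp14, a membrane metalloproteinase, differed by 0.47 (SE 0.19, limma's unadjusted p = 0.0432), but all 4 arrays were below the negative control median and the call was lost when any 1 array was left out. With all arrays kept, Mmp14 held its call in the ordinary test (unadjusted p 0.0140) and in limma after quantile normalisation (unadjusted p 0.029). It lost the call with a trended robust prior and with controls in the prior. Clu, clusterin, a lipoprotein that binds amyloid-beta and that astrocytes and choroid plexus secrete, gave 17.05 and 16.81 in TCQA and 17.39 and 17.29 in water, a difference of -0.41 (SE 0.20). It missed an unadjusted p of 0.05 in limma at 0.0769, and reached it at 0.00619 with a prior that was both trended and robust and at 0.0468 in the upper 50 percent of signal.

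Of 24 tau kinase and phosphatase genes 12 were higher and 12 lower, with a median of 0.016 and 0 past an unadjusted p of 0.05 in limma. Mark4, a kinase of the microtubule-binding repeats, differed by 0.40 (SE 0.20), at 7.47 and 7.49 in TCQA and 7.20 and 6.96 in water. Ppp5c, a phosphatase, and Ttbk2, a tau-tubulin kinase, differed by 0.43 (SE 0.27) and 0.27 (SE 0.19). Leaving out TCQA 1 moved that of Ppp5c to 0.74 (limma's unadjusted p = 0.0357) and leaving out TCQA 2 moved it to 0.11 (0.709). Of 10 microtubule-associated genes 5 were higher and 5 lower (median -0.035), also with 0 past the test. Dcx, doublecortin of young neurons, gave 9.86 and 10.93 in TCQA and 9.55 and 9.89 in water, and its difference of 0.67 (SE 0.36) rested on TCQA 2. It came to 0.14 without that array and to 1.20 without TCQA 1 (unadjusted p in limma 0.653 and 0.00398). TCQA 2 was also the array with the highest olfactory bulb markers, at a mean of 7.89 against 6.49 to 6.90 elsewhere, and their part in the value of Dcx was not tested. Under a block for the replicate number Dcx had an unadjusted p of 0.0382 in limma.

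The list around apolipoprotein E had 8 higher and 14 lower of 22 genes and a median of -0.13, with 0 past an unadjusted p of 0.05 in limma. Rxra, a nuclear receptor partner that controls Apoe and lipid efflux genes, differed by 0.48 (SE 0.23), and Pltp, a phospholipid transfer protein, by 0.50 (SE 0.25). The signal of Rxra was near the negative control median of 6.98, at 7.35 and 7.22 in TCQA and 7.05 and 6.57 in water. Lcat, which esterifies cholesterol on lipoproteins, was lower by a log2 difference of -0.40 (SE 0.20), at 9.40 and 9.10 in TCQA and 9.69 and 9.62 in water. These differences had different signs, and none passed the test. Without water 1 those of Rxra and Pltp were 0.72 and 0.80, with unadjusted p-values in limma of 0.0281 and 0.0187, and without water 2 they were 0.24 and 0.21, with 0.375 and 0.436. That of Lcat was -0.25 without TCQA 2 and -0.55 without TCQA 1.

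**Figure D4:**
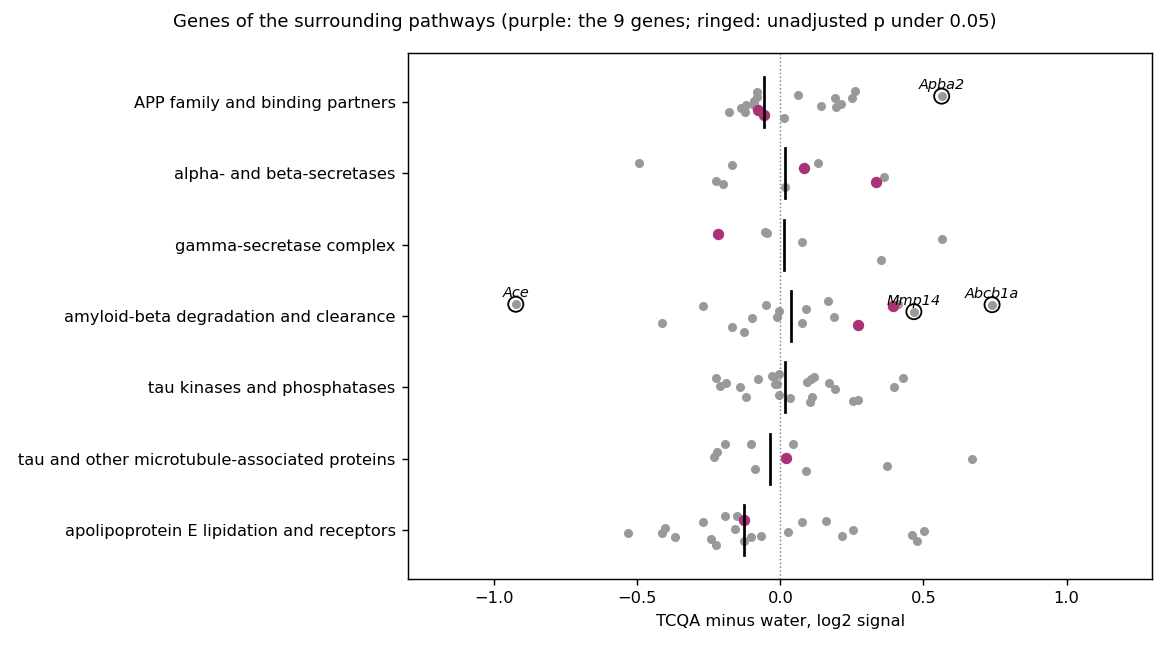
Difference between TCQA and water in log2 signal for each measured gene of the 7 lists; vertical bars are list medians, purple points the 9 genes and rings an unadjusted p under 0.05 in limma. List medians lie between -0.13 and 0.036, and the ringed genes are Ace, Abcb1a, Mmp14 and Apba2.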

How the data were processed

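Cortex RNA was measured on 4 Clariom S arrays, 2 per group, from 100 ng per array. According to the design text, the authors ran SST-RMA in Transcriptome Analysis Console 4.0.2, and they deposited log2 signals, 1 per transcript cluster. RMA equalises the arrays, so no depth remains, and the signal space transformation can widen differences compared with plain RMA. No source used here names the genome build. Gene symbols came from the platform annotation, and 19572 transcript clusters with 1 symbol were tested. Groups were taken from the titles and compared in limma 3.58.1 (R 4.3.3; lmFit and eBayes, no block), two-sided, with Benjamini-Hochberg adjustment. The median SE of a log2 difference was 0.22, at which a 1.43-fold change just reaches an unadjusted p of 0.05. On simulated data of this comparison (10 runs, 19572 transcript clusters) a log2 change of 0.5 reached an unadjusted p of 0.05 in 43.2% of cases and one of 1 in 91.0%.

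The genes and lists were chosen with earlier results of these data known. Beside the 9 genes, up to 4 genes of each pathway list and 2 of each marker list with the smallest p were eligible to be named, with Slc17a7 added after its values were seen, as were the genes nearest to App, Mapt and Apoe. As alternatives, arrays were left out in turn, weighted, quantile normalised or centred, dim signals were dropped, controls were added to the prior, a trended robust prior or no moderation was used, and the replicate number was a block. Promoter windows came from a RefSeq table on GRCm38.p6. Plots used matplotlib 3.10.9 (Python 3.11.15).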

Additional observations from a re-analysis of the deposited data

How the results depend on the processing

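Of 71 values of the 9 genes under the alternatives that keep all arrays, 70 kept their direction and their side of an unadjusted p of 0.05, the exception being Mapt after quantile normalisation (-0.023). With 1 array left out 29 of 36 did, where the spread of a group with 1 array is taken from the other group. Ranges over the arrays left out were -0.16 to 0.049 for App (0.011 without TCQA 1, 0.049 without water 2), -0.068 to 0.23 for Adam10 (-0.051 without TCQA 1, -0.068 without water 1), -0.67 to 0.24 for Psen2 and -0.073 to 0.11 for Mapt (-0.073 without water 1). The count of genes with a lower TCQA mean ran from 2 to 6, and that with an unadjusted p under 0.05 from 0 to 1. The count whose interval lay within 2-fold, of the 8 other than Psen2, ran from 6 to 7 there, and was 6 in the unmoderated test. Over all transcript clusters, the count past the study's criteria was 130, from 218 to 428 with 1 array left out, 44 in the upper 50 percent of signal and 55 in the unmoderated test. The count with an unadjusted p under 0.05 was 1443, and 898 in that upper part, where fewer were tested. The adjusted count was 0 to 2 with 1 array left out. List medians ran with 1 array left out from -0.071 to 0.044 for precursor partners (-0.011 after quantile normalisation), -0.031 to 0.15 for alpha- and beta-secretases (-0.034 after quantile normalisation), 0.042 to 0.11 for degradation, 0.0031 to 0.13 for gamma-secretase (-0.033 after quantile normalisation), 0.0043 to 0.068 for tau kinases, -0.082 to 0.0091 for microtubule-associated genes and -0.17 to -0.045 for the Apoe list. Adam17 ran from -0.60 without TCQA 2 to 0.15 without TCQA 1, and Psenen from -0.11 to 0.012 (without water 1). With a trended robust prior Clu, Tspan5, Pltp and Rtn1 reached an unadjusted p of 0.05 and Mmp14 lost it, at unchanged differences, and in the upper 50 percent of signal Clu and Aph1c reached it. Where not stated, the cause of a change was not tested.

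The replicate numbers did not pair the arrays, as same-numbered deviations from the group means correlated at -0.003. With the replicate block, 0 of 9 genes reached an unadjusted p of 0.05, the count over all transcript clusters was 1497, and App stood at -0.058. A further transcript cluster per symbol could not be tried, since each gene had 1, and Psen2 has no value in the upper 50 percent of signal. Signal over background limits Psen2, Bace2 and Mmp14 most, and Bace1, Mme and Mapt next.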
